A study of Mus musculus with 12 samples.

Results

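Tnfaip3, Tnip1, Cyld, Birc2, Birc3, Traf1, Icam1, Vcam1, Cd83 and Sod2 are 10 genes known as targets or regulators of the transcription factor NF-kB, and they were followed across mouse embryonic fibroblasts (MEFs) with and without a C-terminal truncation of GADD34. The members were found by symbol, through the RefSeq accessions that the array gives for its probes. All 10 had at least 1 probe, 12 probes of 55681 in all, and all 10 were among the 15445 genes tested, out of 20660 named genes on the array. The 4 groups, of 3 arrays each, were GADD34ΔC/ΔC MEFs (ΔC) that had received 2.5 µg/ml of long-chain (high molecular weight) poly(I:C) by lipofection for 6 h, untreated ΔC MEFs, wild-type (WT) MEFs given the same poly(I:C), and untreated WT MEFs. Poly(I:C) is a synthetic double-stranded RNA that stands in for viral RNA, and GADD34, encoded by Ppp1r15a, is the stress-induced partner of the phosphatase that acts on the translation factor eIF2α. Per the series' design text the 3 arrays of a group came from independent experiments, but the labels do not say how many embryos or cell lines stand behind each genotype, so that the genotype and the line cannot be told apart. The labels list no cells given the lipid reagent alone, so that poly(I:C) and its transfection cannot be told apart either.

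NF-kB is held in the cytoplasm by IkB proteins and enters the nucleus once receptors for cytokines or foreign RNA activate the IkB kinases. Ubiquitin chains built on the receptor complexes carry that signal, and several NF-kB target genes encode the enzymes and adaptors that trim or bind those chains and so close a feedback loop. Other targets place adhesion and costimulatory molecules on the cell surface, or protect the cell from oxidants and death signals.

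RefSeq promoter windows, which run from 250 bases before an annotated start to 50 bases from it, were at hand for 8 of the 10 members, in 10 windows on build GRCm38.p6. Vcam1 and Cd83 are named only. The NF-kB consensus was GGGRNNYYCC, with R for A or G, Y for C or T and N for any base. Searched on both strands, it was found in the windows of 4 members, Tnfaip3, Tnip1, Cyld and Sod2. Among all 27025 genes with a window it was found for 9.55% (8.459% of all 32851 windows). A looser pattern, GGG and CC with any 5 bases between them, overlaps the consensus by construction and was found for 6 members and for 53.517% of all genes (50.793% of all windows). The core of the interferon response element, GAAA and a further GAAA with any 2 bases between them, was found for 0 members and for 3.993% of all genes (3.443% of all windows). TATAAA was found for 2 members and for 15.667% of all genes (13.616% of all windows). The windows of 4 members are shown in gene orientation because these genes differ in their response below: Tnfaip3 rose steeply and holds the consensus, Tnip1 and Sod2 hold it and did not pass the test after poly(I:C), and Icam1 rose steeply without it. Capitals mark matches to the NF-kB consensus, and Icam1 has none. Its window does hold tggaaattcc, which differs from the consensus in the first base alone. A window without a match may therefore still hold a site that NF-kB can bind, which was not tested.
Tnfaip3: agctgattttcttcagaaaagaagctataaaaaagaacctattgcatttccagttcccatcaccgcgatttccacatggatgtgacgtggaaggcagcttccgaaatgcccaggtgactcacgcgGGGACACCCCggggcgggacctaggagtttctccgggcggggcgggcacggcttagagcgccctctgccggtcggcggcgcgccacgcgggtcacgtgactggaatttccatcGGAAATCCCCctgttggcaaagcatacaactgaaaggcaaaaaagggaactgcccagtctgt
Tnip1: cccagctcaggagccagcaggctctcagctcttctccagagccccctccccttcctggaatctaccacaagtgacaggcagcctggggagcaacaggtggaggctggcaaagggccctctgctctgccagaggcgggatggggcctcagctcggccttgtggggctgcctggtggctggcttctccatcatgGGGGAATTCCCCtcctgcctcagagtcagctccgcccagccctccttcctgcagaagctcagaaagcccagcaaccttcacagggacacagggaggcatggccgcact
Sod2: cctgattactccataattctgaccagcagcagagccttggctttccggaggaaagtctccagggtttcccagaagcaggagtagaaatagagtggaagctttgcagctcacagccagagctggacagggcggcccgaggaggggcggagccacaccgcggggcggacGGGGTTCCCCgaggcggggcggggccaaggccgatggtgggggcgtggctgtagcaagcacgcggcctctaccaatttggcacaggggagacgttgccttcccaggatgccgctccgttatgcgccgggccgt
Icam1: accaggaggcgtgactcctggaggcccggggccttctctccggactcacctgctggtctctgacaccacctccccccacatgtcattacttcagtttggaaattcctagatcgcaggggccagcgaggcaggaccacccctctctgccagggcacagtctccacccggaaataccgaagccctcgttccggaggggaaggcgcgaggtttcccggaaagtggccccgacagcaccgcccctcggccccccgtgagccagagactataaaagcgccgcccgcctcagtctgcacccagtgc
The Tnfaip3 window lies on the minus strand at chr10:19015361-19015660, the upstream of its 2 annotated starts, and its matches begin at positions -125 and -12, counted from the start base as 0. The Tnip1 window is at chr11:54962891-54963190 on the minus strand, and its 3 matches overlap in 1 stretch that begins at -58. The Sod2 match begins at -83, in the window at chr17:13007589-13007888 on the plus strand. The Icam1 window, at chr9:21015690-21015989 on the plus strand, holds 1 looser match at -120 and TATAAA at 13. These matches describe the letters of the windows and are not evidence of binding.

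Levels are given as normalized log2 levels, the log2 of the scanner's processed intensity with the 75th percentile of each array set to 0, and they compare arrays for 1 probe, not probes with each other. Between 60.441% and 67.281% of probes were well above background on each array. Readings called dim or below background are those that the scanner did not flag as well above background. As a check of the labels, the Ppp1r15a probe was well above background on 1 of 3 ΔC arrays with poly(I:C) and 0 of 3 untreated ΔC arrays, against all 6 WT arrays, and its signal was at least 486.3-fold lower in untreated ΔC cells than in untreated WT cells (limma adjusted p = 6.149e-05). The position of that probe relative to the truncation is not given. Ifnb1, the interferon gene that double-stranded RNA induces, was at least 4930-fold higher with poly(I:C) in WT cells (adjusted p = 3.038e-06). Fibroblast markers were detected on all 3 arrays for 10 of 11 genes in both ΔC groups and untreated WT cells and 8 of 11 in WT cells with poly(I:C), Lum being well above background on no array. The summed level of the 11, in units of the 75th percentile, was 307.9 to 581.6 in treated and 294.9 to 583.5 in untreated ΔC cells. In WT cells it was 559.6 to 657.6 treated and 619.9 to 707 untreated, so that untreated ΔC and WT arrays did not overlap. The arrays came from 5 slides scanned on 3 days, with the groups spread unevenly over them, and the 4 arrays numbered 3 stood apart on the third principal component (8.523% of the variance, scores of -45.5 to -24.3 against 2.08 to 31.0 for the other 8). Below, a slide or scan day term means a fixed term for it in the fit, added after the data were seen. With slide or scan day as a random block instead, every member called in the main fit stayed called. Within slide 1, slide 2 and scan day 1, the batches that allow a contrast of single arrays or pairs, each called member kept its sign in each comparison made there.

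After poly(I:C), Tnfaip3, Traf1, Icam1, Vcam1 and Cd83 rose in ΔC cells, and Tnfaip3, Traf1, Icam1 and Vcam1 rose in WT cells. That is 5 of 10 members in ΔC cells and 4 of 10 in WT cells, where 1.82% of all genes were called higher in ΔC cells and 5.24% in WT cells at a limma adjusted p under 0.05. Icam1, counted in both genotypes, was kept for testing only through its treated groups. Cd83 also passed that test in WT cells, but none of the 6 WT readings was well above background, so that it is not counted there as a rise. Raising dim values to the background floor puts all 6 at or near that floor, so that the resulting 0.02 log2 units decides nothing. No member was called lower by limma in either genotype, where 0.0194% and 1.53% of all genes were, and at an unadjusted p under 0.05 there were 6 members in ΔC cells and 9 in WT cells (10.9% and 26.2% of all genes), of which Sod2 in WT cells alone was lower. The median log2 change over the 10 members was 1.51 in ΔC cells and 1.63 in WT cells, beside -0.05 and -0.14 over all genes, and with dim values raised to the floor it was 1.51 in ΔC and 1.04 in WT cells. Without overlap between treated and untreated arrays, 7 members were higher in ΔC cells and 8, the dim Cd83 among them, in WT cells, where 8.79% and 12% of all genes were, and 0 and 1 lower, where 8.91% and 18.6% were. Cyld, Birc2, Birc3, Tnip1 and Sod2 were not called with poly(I:C) in either genotype.

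Between the genotypes, members stood on both sides. Without poly(I:C), Vcam1 and Cd83 were higher in ΔC than in WT cells and Traf1 and Sod2 were lower, 2 members in each direction, where 10.9% of all genes were called higher and 10.2% lower. In treated cells Cd83 was higher and Traf1 lower, 1 member in each direction, where 11.9% of all genes were called higher and 9.04% lower, so that 2 of 10 members stood beside 20.9% of all genes. Cd83, counted in both conditions, was kept for testing only through its ΔC groups. The median log2 difference over the 10 members was -0.11 without and -0.15 with poly(I:C), beside -0.06 and 0.01 over all genes. Arrays of the genotypes did not overlap for 4 members without poly(I:C), 2 higher and 2 lower (17.6% and 19.6% of all genes), and for 5 members with it, 2 higher and 3 lower (21.7% and 18.9%).

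**Figure D1:**
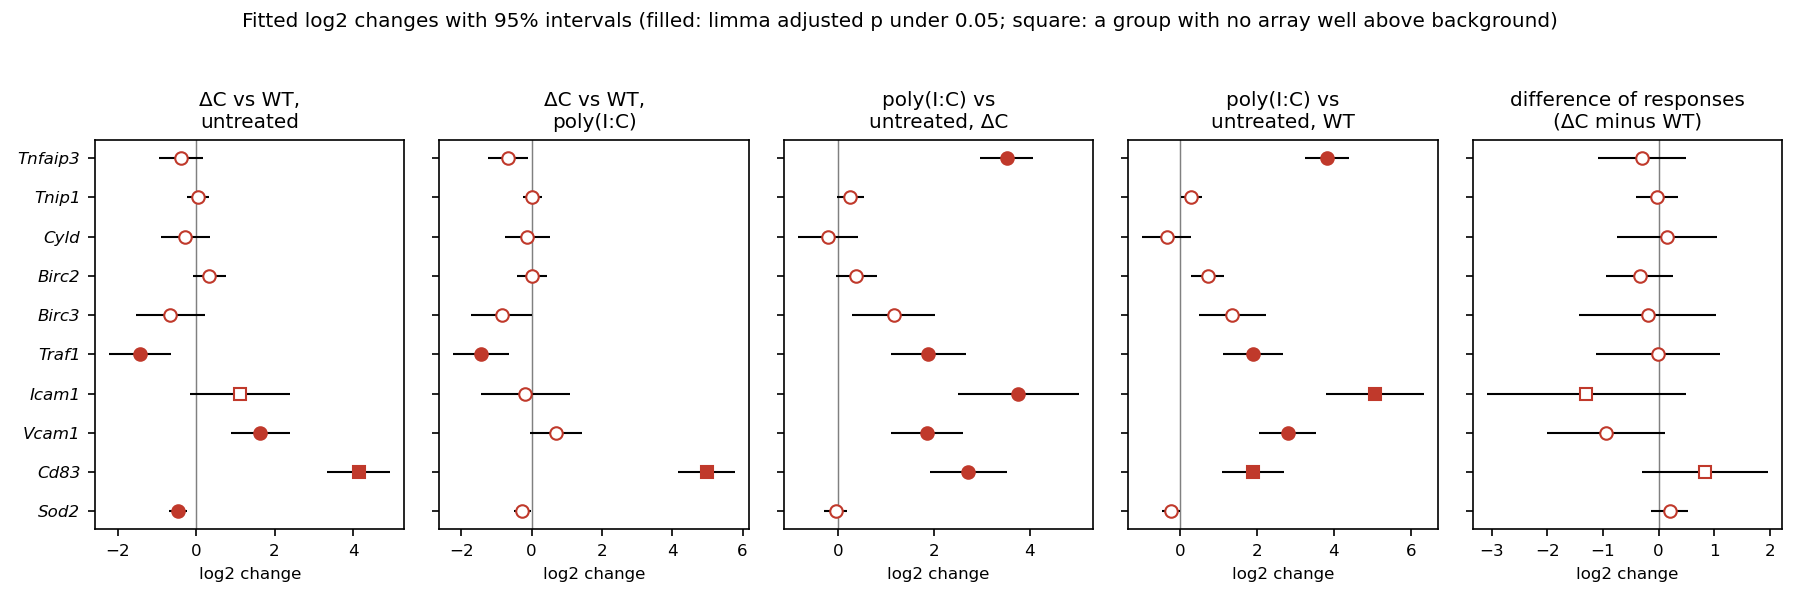
Fitted log2 change (x axis) of each of the 10 members (rows) in the 5 contrasts (panels), with 95% intervals as lines filled points where the limma adjusted p was under 0.05, and squares where a group compared had no array well above background. The poly(I:C) panels hold 5 filled points each, all to the right of 0, of which the Icam1 and Cd83 squares in WT cells have sizes set partly or wholly by background readings, while the genotype panels hold points on both sides and the panel of the difference of responses has no filled point.

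Tnfaip3 encodes A20, the ubiquitin-editing enzyme that shuts down signalling to NF-kB. Its normalized log2 levels were 4.13, 4.29 and 4.18 in ΔC cells with poly(I:C), against 0.19, 0.76 and 1.09 in untreated ΔC cells. In WT cells they were 4.99, 4.79 and 4.86 with poly(I:C), against 0.81, 0.77 and 1.58 without it. All 6 treated arrays lay far above all 6 untreated ones, and the treated ΔC arrays lay together just under the treated WT arrays. The rise was 3.52 ± 0.25 log2 units in ΔC cells (11.5-fold, adjusted p = 7.665e-05) and 3.82 ± 0.25 in WT cells (adjusted p = 1.778e-05; errors of changes are standard errors). It was called in WT cells under every one of 30 alternative settings (adjusted p 4.248e-07 to 0.02045), and in ΔC cells under all but the authors' deposited table. Untreated ΔC and WT cells differed by -0.38 ± 0.25, within the spread of their arrays. In treated cells the genotypes differed by -0.68 ± 0.25, with no overlap between arrays but an adjusted p of 0.08451. Leaving out the 4 arrays numbered 3 gave -0.68 with an adjusted p of 0.04164 (0.01542 to 0.2763 over 30 alternatives).

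Tnip1 encodes an adaptor that binds both A20 and ubiquitin chains, and Cyld a deubiquitinase that removes them. Tnip1 had levels of 4.12, 4.33 and 4.47 in ΔC cells with poly(I:C), against 4.06, 4.06 and 4.00 in untreated ΔC cells. Its levels in WT cells were 4.35, 4.28 and 4.22 with poly(I:C), against 4.12, 4.03 and 3.81 without. Every treated array stood above the untreated arrays of its genotype, by a small margin. The fitted changes were 0.27 ± 0.12 in ΔC cells (adjusted p = 0.4671) and 0.30 ± 0.12 in WT cells (adjusted p = 0.1579), and a second Tnip1 probe gave 0.25 and 0.31. The genotypes differed by 0.05 without and 0.02 with poly(I:C), well inside the spread, and the second probe gave 0.06 and -0.01. Cyld ranged from -0.71 to -0.22 in treated ΔC cells, -0.42 to 0.05 in untreated ΔC cells, -0.58 to 0.00 in treated WT cells and -0.53 to 0.66 in untreated WT cells. These ranges overlapped in every comparison, and the fitted changes with poly(I:C) were -0.20 ± 0.28 in ΔC cells (adjusted p = 0.8446) and -0.35 ± 0.28 in WT cells (adjusted p = 0.4479).

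**Figure D2:**
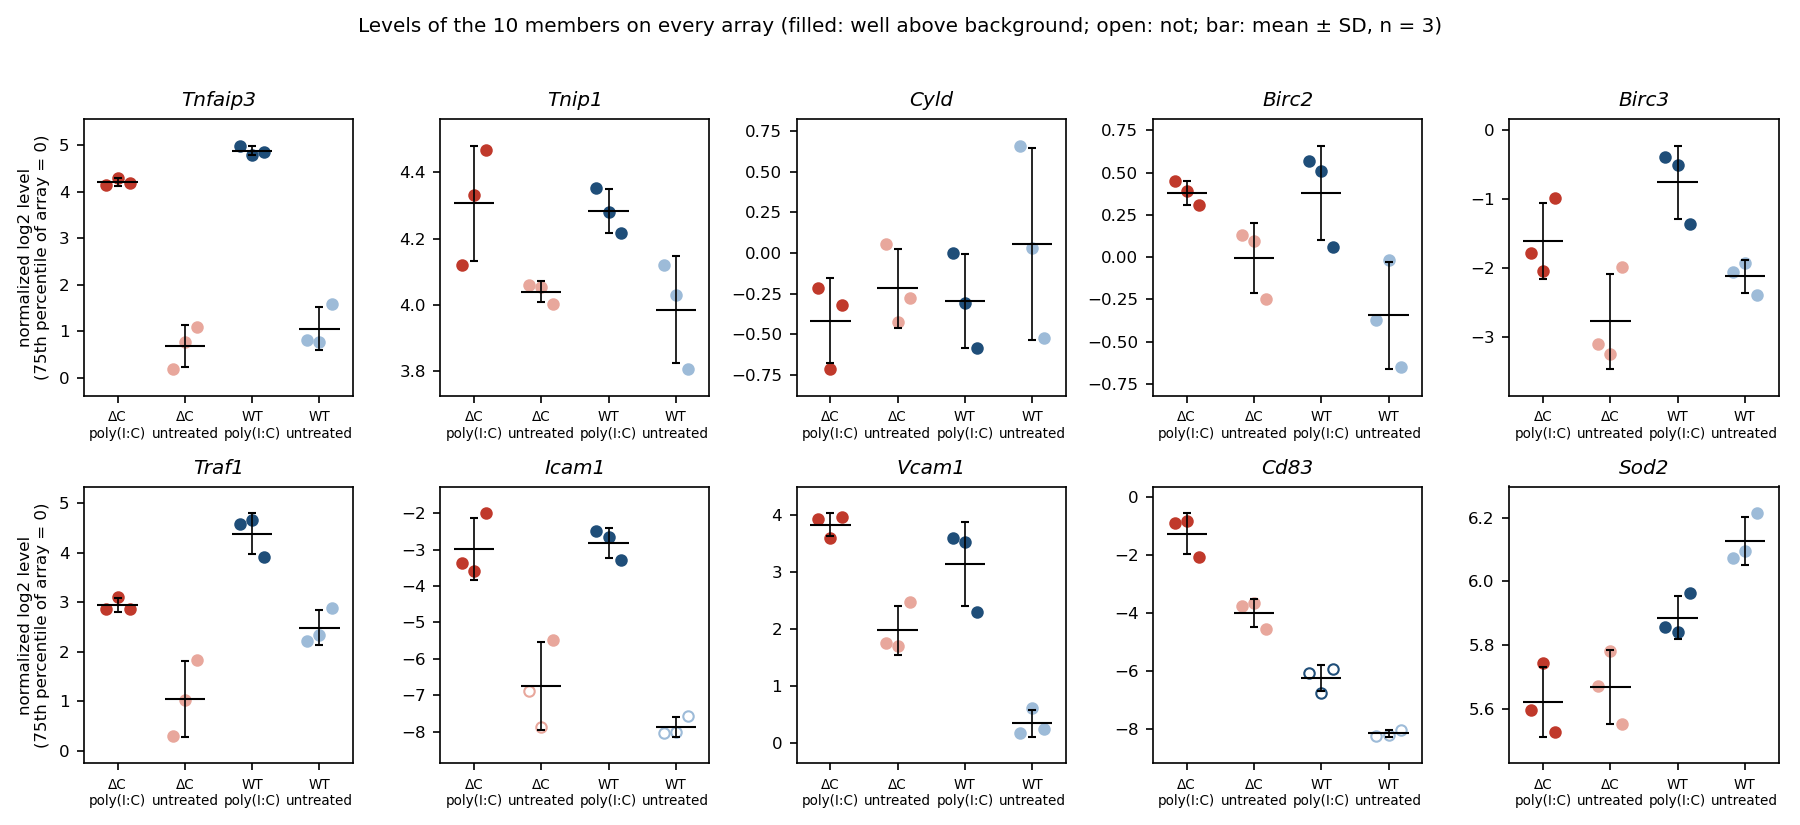
Normalized log2 level of each member on each of the 12 arrays (y axis, 75th percentile of the array at 0, a separate scale per panel) in the 4 groups, with bars for the mean ± SD of 3 arrays and open circles where the probe was not well above background. Tnfaip3, Traf1, Icam1 and Vcam1 stand higher in the poly(I:C) groups of both genotypes, Cd83 is filled in ΔC cells and open on all 6 WT arrays, and Sod2 spans less than 1 log2 unit.

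Birc2 and Birc3 encode the cIAP proteins, ubiquitin ligases that join TRAF adaptors in TNF receptor complexes, and they are neighbouring, closely similar genes whose cross-hybridisation was not tested. Birc3 had levels of -1.79, -2.05 and -0.98 in ΔC cells with poly(I:C), against -3.09, -3.24 and -1.98 in untreated ΔC cells. In WT cells it had -0.40, -0.51 and -1.36 with poly(I:C), against -2.05, -1.92 and -2.39 without. In ΔC cells the array numbered 3 was the highest of its group with and without poly(I:C), and the ranges met there, while in WT cells all treated arrays were above all untreated ones. The changes were 1.17 ± 0.39 in ΔC cells (adjusted p = 0.289) and 1.36 ± 0.39 in WT cells (adjusted p = 0.06551), neither called. Without the 4 arrays numbered 3 they were 1.25 (adjusted p = 0.003631) and 1.53 (adjusted p = 0.0006798), and the genotype differences, -0.65 ± 0.39 without and -0.85 ± 0.39 with poly(I:C) on all arrays, became -1.18 (adjusted p = 0.001285) and -1.46 (adjusted p = 0.0004929). Over all 30 alternatives the adjusted p of these 4 changes ran up to 0.7881 in ΔC cells, 0.327 in WT cells, and 0.633 and 0.5532 between the genotypes.

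Birc2 moved less. It had levels of 0.45, 0.39 and 0.31 in ΔC cells with poly(I:C), against 0.13, 0.10 and -0.25 in untreated ΔC cells, and 0.57, 0.51 and 0.06 in WT cells with poly(I:C), against -0.37, -0.02 and -0.65 in untreated WT cells. The treated arrays stood above the untreated arrays in each genotype. The changes were 0.39 ± 0.19 in ΔC cells (adjusted p = 0.5039) and 0.72 ± 0.19 in WT cells, where the adjusted p of 0.05101 lay just above the threshold. Blocking on the replicate number, the WT change of 0.72 was called (adjusted p = 0.01291; 0.0007576 to 0.2605 over 30 alternatives). The genotypes did not separate, at 0.34 ± 0.19 without and 0.00 ± 0.19 with poly(I:C).

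Traf1, an adaptor that binds TRAF2 and the cIAP proteins, was lower in ΔC cells in both conditions and rose in both genotypes. Its levels were 2.87, 3.103 and 2.86 in ΔC cells with poly(I:C), against 0.31, 1.02 and 1.84 in untreated ΔC cells. In WT cells they were 4.57, 4.66 and 3.90 with poly(I:C), against 2.22, 2.34 and 2.89 without. The treated WT arrays were the highest and the untreated ΔC arrays the lowest, while treated ΔC and untreated WT cells, in the middle, had ranges that met. ΔC cells were lower than WT cells by 1.43 ± 0.35 log2 units without poly(I:C) (change -1.43, 2.69-fold lower, adjusted p = 0.01803) and by 1.44 ± 0.35 with it (change -1.44, 2.71-fold lower, adjusted p = 0.01728). The rise with poly(I:C) was 1.89 ± 0.35 in ΔC cells (adjusted p = 0.02388) and 1.89 ± 0.35 in WT cells (adjusted p = 0.01144). All 4 Traf1 calls were lost with a slide term, at adjusted p of 0.2164, 0.1804, 0.4218 and 0.2006 in the order given, and with a scan day term, while the changes stayed at -1.37, -1.44, 1.88 and 1.95. With slide as a random block all 4 were kept (adjusted p of 0.02284, 0.01867, 0.02556 and 0.01341). Single arrays also ended these calls. The untreated genotype call was lost without ΔC array 1 (-1.06, adjusted p = 0.06143), ΔC array 2 (0.0603) or WT array 3 (0.05621), and the treated one without ΔC array 1 (0.05604), WT array 1 (0.068) or WT array 2 (0.07179). The ΔC response was lost without untreated array 1 (0.07209) or 2 (0.1048) or treated array 1 (0.09115) or 2 (0.09498), and the WT response without untreated array 1 (0.05827) or 2 (0.05196) or treated array 1 (0.06256) or 2 (0.06209). Over all 30 alternatives the adjusted p of the 4 changes ran from 0.001007, 0.0003758, 0.0004457 and 9.003e-05 up to the values of the slide term. Within slide 2 untreated ΔC cells differed from WT cells by -1.32 and poly(I:C) raised the WT level by 2.32, and within slide 1 treated cells differed by -1.71 and the ΔC level rose by 2.56.

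Icam1 and Vcam1 encode the adhesion molecules that leukocyte integrins bind on activated endothelium, fibroblasts and other cells. Icam1 had levels of -3.36, -3.60 and -2.00 in ΔC cells with poly(I:C), against -6.89, -7.88 and -5.49 in untreated ΔC cells, of which only the array numbered 3 (-5.49) was well above background. In WT cells it had -2.50, -2.64 and -3.28 with poly(I:C), against -8.03, -8.02 and -7.56 without, all 3 below background. Treated arrays of either genotype stood above every untreated array. On the processed intensity Icam1 was at least 8.855-fold higher with poly(I:C) in WT cells. With dim values raised to the background floor the rise was 3.15 log2 units (adjusted p = 0.0007331), and as fitted the adjusted p was 0.0005129. Icam1 was kept for testing only through its treated groups, where it is high. In ΔC cells the fitted rise was 3.77 ± 0.57 (adjusted p = 0.006764), a size that rests partly on background readings, and it was lost with a slide term (3.88, adjusted p = 0.1644) and a scan day term (3.71, adjusted p = 0.08666; 0.000108 to 0.5719 over 29 alternatives). Within slide 1 the ΔC rise was 3.53. Normexp background correction gave smaller rises, of 1.09 in ΔC cells (adjusted p = 0.0288) and 1.36 in WT cells (adjusted p = 0.003148). The treated genotypes overlapped, at -0.18 ± 0.57 (95% interval -1.45 to 1.09).

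Vcam1 was well above background on all 12 arrays. Its levels were 3.93, 3.60 and 3.97 in ΔC cells with poly(I:C), against 1.76, 1.70 and 2.47 in untreated ΔC cells. In WT cells they were 3.59, 3.53 and 2.29 with poly(I:C), against 0.17, 0.61 and 0.25 without. The treated ΔC arrays were the highest, untreated ΔC cells stood well above untreated WT cells, and the WT array numbered 3 was low among the treated arrays, at a level within the untreated ΔC range. Vcam1 was 1.63 ± 0.34 log2 units higher in untreated ΔC than in untreated WT cells (adjusted p = 0.007538). With poly(I:C) the difference was 0.69 ± 0.34 (adjusted p = 0.1778). The arrays stayed apart only narrowly, with the lowest ΔC array at 3.6022 and the highest WT array at 3.5938. The rise with poly(I:C) was 1.86 ± 0.34 in ΔC cells (3.62-fold, adjusted p = 0.02008) and 2.80 ± 0.34 in WT cells (6.96-fold, adjusted p = 0.0008099). A second Vcam1 probe gave 1.95 for the untreated genotype difference (adjusted p = 0.00853), 2.56 for the WT response (adjusted p = 0.004872) and 1.58 for the ΔC response, which it did not call (adjusted p = 0.1208).

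The ΔC response of Vcam1 was lost with a slide term (2.00, adjusted p = 0.3299), with a scan day term (1.95, adjusted p = 0.1377) and without untreated ΔC array 1 (0.09922) or 2 (0.1056) or treated ΔC array 1 (0.09524), 2 (0.05307) or 3 (0.05473), within a range of 0.0001975 to 0.6674 over 30 alternatives. A slide term also ended the call in WT cells (2.76, adjusted p = 0.07867; 3.504e-06 to 0.08655) and in the untreated genotype comparison (1.59, adjusted p = 0.1465; 0.0004239 to 0.1945). Within slide 2 untreated ΔC cells stood 1.10 above WT cells and the WT level rose by 2.93, and within slide 1 the ΔC level rose by 2.17. Of the 6 endothelial markers, Cdh5, Tek and Emcn were well above background on no array, and Pecam1, Kdr and Vwf were on all 12. The summed level of the 6 was 12.44 to 17.91 in treated and 12.39 to 15.82 in untreated ΔC cells, against 15.74 to 16.4 in treated and 15.18 to 22.21 in untreated WT cells, in units of the 75th percentile. In bulk RNA, more cells of a type and more RNA per cell cannot be told apart.

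Cd83 encodes a surface protein of mature dendritic cells and activated lymphocytes that steadies antigen-presenting molecules. Its levels were -0.90, -0.82 and -2.08 in ΔC cells with poly(I:C), against -3.75, -3.67 and -4.55 in untreated ΔC cells, all 6 well above background. In WT cells the readings were -6.06, -6.76 and -5.92 with poly(I:C), against -8.22, -8.19 and -8.01 without, and none of the 6 was well above background. Treated ΔC arrays were the highest, untreated ΔC arrays followed, and both stood above all 6 WT readings, whose own order lies below background. On the processed intensity Cd83 was at least 3.897-fold higher in ΔC than in WT cells without poly(I:C) and at least 25.48-fold higher with it. These bounds were taken against the lowest signal well above background on each array. With WT readings raised to that floor the log2 differences were 1.96 (adjusted p = 0.002068) and 4.67 (adjusted p = 8.204e-06). As fitted, on WT readings below background, the adjusted p were 4.707e-05 and 1.799e-05. Cd83 was kept for testing only through its ΔC groups, where it is high. Normexp background correction gave smaller log2 differences of 0.88 (adjusted p = 0.02752) without and 2.48 (adjusted p = 6.128e-05) with poly(I:C). In ΔC cells it rose by 2.72 ± 0.36 with poly(I:C) (6.61-fold, adjusted p = 0.002898), a call that a slide term ended (2.56, adjusted p = 0.1007; 0.000167 to 0.9469 over 29 alternatives), with 2.85 within slide 1.

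The WT readings of Cd83 passed the test upwards (adjusted p = 0.01262), but as both WT groups lay below background no fold is given. With dim values raised to the background floor the WT change was 0.02 (adjusted p = 0.9795), and normexp background correction gave 0.18 (adjusted p = 0.6773; 0.001082 to 0.9795 over 29 alternatives). The 0.02 follows from the floor, which puts all 6 WT readings at or near it, and cannot show whether Cd83 changed. The WT call was also lost without untreated WT array 1 (0.05752) or 2 (0.05206) or treated WT array 1 (0.06792). Of 5 dendritic cell markers, Itgax was well above background on no array, and Flt3 and Cd74 were on all 12. H2-Ab1 was detected on all ΔC arrays and on some but not all arrays of each WT group. H2-Aa was detected on no WT array and on some but not all arrays of each ΔC group. The summed level of the 5 was 3.25 to 8.549 in treated and 3.601 to 11.37 in untreated ΔC cells, against 0.8152 to 1.247 in treated and 0.1949 to 0.5347 in untreated WT cells. This sum was higher on all 6 ΔC arrays than on all 6 WT arrays. The summed level of the 7 leukocyte and macrophage markers with a probe went the other way, at 10.83 to 13.17 in treated and 10 to 12.98 in untreated ΔC cells, against 14.36 to 16.71 in treated and 19.73 to 23.59 in untreated WT cells, with Lyz2 well above background on no array. Of 5 epithelial markers, Epcam and Cdh1 were well above background on all 6 ΔC arrays and on no WT array. Krt8 went the other way, on all 6 WT arrays but only on some arrays of each ΔC group, and Krt18 and Krt19 were on all 12. The summed level of the 5 was 4.992 to 10.1 in treated and 5.256 to 10.51 in untreated ΔC cells, against 2.974 to 6.226 in treated and 4.255 to 8.31 in untreated WT cells. The part of these markers in the Cd83 difference was not tested.

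Sod2 encodes the manganese superoxide dismutase of mitochondria. Its levels were 5.60, 5.74 and 5.53 in ΔC cells with poly(I:C), against 5.67, 5.78 and 5.55 in untreated ΔC cells. In WT cells they were 5.86, 5.84 and 5.96 with poly(I:C), against 6.07, 6.09 and 6.21 without. The ΔC arrays lay below the WT arrays in both conditions, and untreated WT cells were the highest. Sod2 was lower in untreated ΔC than in untreated WT cells, with a log2 difference of -0.46 ± 0.11 (1.38-fold lower, adjusted p = 0.01395), and the -0.26 ± 0.11 with poly(I:C) was not called (adjusted p = 0.1106). The untreated call was lost in 8 of 30 alternatives, among them median scaling (-0.39, adjusted p = 0.3295), quantile normalization (-0.23, adjusted p = 0.1509) and a slide term (-0.45, adjusted p = 0.167; 0.003573 to 0.5679 over all 30). Within slide 2 the difference was -0.31. The level changed with poly(I:C) by -0.05 ± 0.11 in ΔC cells (95% interval -0.28 to 0.19) and by -0.24 ± 0.11 in WT cells (adjusted p = 0.1871), neither of them called. Its promoter window is 1 of those with the consensus shown above.

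Whether the response to poly(I:C) differed between genotypes was tested as the ΔC response minus the WT response. None of the 10 members passed by limma, and 0 did so at an unadjusted p under 0.05, where 5.41% of all genes did. Over all genes 3 were called, 0.0194%, of which 0.00647% were higher and 0.0129% lower. That count moved with the arrays and the model: 4 genes were higher and 37 lower with the replicate block, 11 and 215 without treated WT array 3, 105 and 382 without the 4 arrays numbered 3, and 196 and 498 with array weights. No member was called under any of the alternatives. The estimate for Vcam1 was -0.94 ± 0.48 (95% interval -2.00 to 0.12, unadjusted p = 0.07572). Traf1 had -0.01 ± 0.50 (interval -1.12 to 1.10) and Tnfaip3 -0.30 ± 0.36 (interval -1.09 to 0.49). The interval of Traf1 reaches past 1 log2 unit in either direction, so that a missed threshold does not show equal responses. The Icam1 and Cd83 estimates rest on readings below background and changed with their treatment. Icam1 had -1.30 ± 0.81 as fitted (interval -3.09 to 0.50), -0.17 with dim values raised to the floor and -0.27 with normexp. Cd83 had 0.83 ± 0.51 as fitted (interval -0.31 to 1.96), 2.71 with the floor (adjusted p = 0.1534) and 1.60 with normexp (adjusted p = 0.2151).

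**Figure D3:**
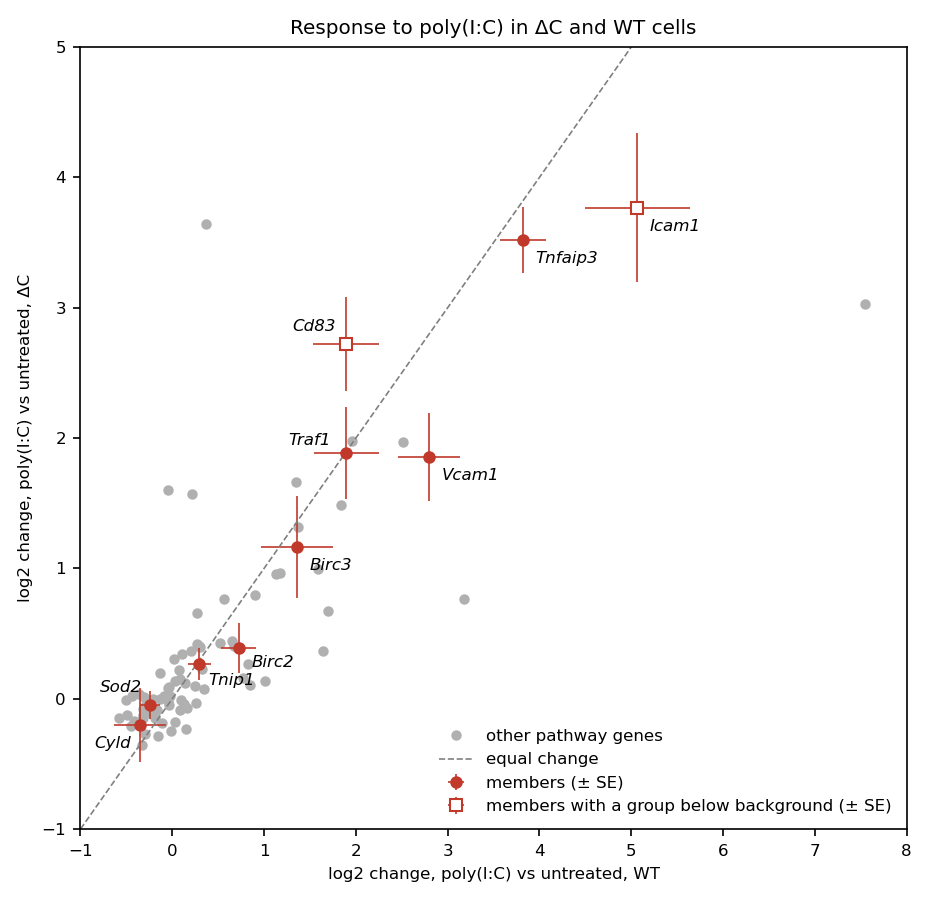
Log2 change with poly(I:C) in ΔC cells (y axis) and in WT cells (x axis) for the 10 members, with standard errors as lines, and for the other pathway genes as grey points whatever their background, beside a dashed line of equal change. Tnfaip3 (3.52 in ΔC and 3.82 in WT cells) and Vcam1 (1.86 in ΔC and 2.80 in WT cells) lie below the line and Traf1 lies on it at 1.89 in both genotypes. The open squares of Icam1 and Cd83 have no settled place, since at least 1 of their groups had no array well above background.

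Across the 12 arrays the members' normalized log2 levels correlated with r from -0.83 (Cd83 and Sod2) to 0.93 (Tnfaip3 and Icam1), with a median of 0.45 over 45 pairs. Icam1 and Vcam1 had r = 0.91, Birc3 and Traf1 0.89, and Birc2 and Vcam1 0.85. Cyld stayed at or below 0.19 with each other member. These values describe 12 arrays that share 4 group means, so that a common group pattern alone gives a high r, and those of Icam1 and Cd83 include readings below background. Among 14650 other genes, the patterns nearest to Tnfaip3 were those of Zfp36 (r = 0.99), Ifna4 and Ifnb1. Nearest to Icam1 were Il5 (0.97), Ifnb1 and Atf3, and nearest to Vcam1 were Il5 (0.97), Gch1 and Neurl3. Traf1 was followed most closely by Ifrd1 (0.99), Rhob and Chac1, Birc3 by Atp6v1h (0.97), Nrg1 and C9orf72, and Birc2 by Pbx4 (0.93), Parp8 and Mier1. Cd83 was nearest to Niban3 (0.97), Atg14 and Ctsk, Sod2 to G6pdx (0.96), Gchfr and Plpp2, Tnip1 to Trim11 (0.91), Rexo5 and Tnfsf15, and Cyld to Lyst (0.91), Nbeal1 and Antxr1.

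Other genes of the same pathway, taken from lists of known components, moved as follows. Beside their counts, 1.82% of all genes were called higher with poly(I:C) in ΔC cells and 5.24% in WT cells, and 0.0194% and 1.53% lower. At an unadjusted p under 0.05 the shares were 10.9% and 26.2%. Between the genotypes 10.9% of all genes were called higher and 10.2% lower without poly(I:C), and 11.9% and 9.04% with it. Of 14 NF-kB subunits, IkB proteins and IkB kinases, 5 rose with poly(I:C) in ΔC cells and 7 in WT cells, and 0 fell. Nfkbie, an IkB protein, rose by 1.97 ± 0.17 in ΔC cells and 2.51 ± 0.17 in WT cells, and Nfkbia, the IkB protein that NF-kB induces, by 1.49 ± 0.17 in ΔC and 1.83 ± 0.17 in WT cells. Nfkbiz, a nuclear IkB protein, rose by 1.67 ± 0.25 in ΔC cells. Nfkbid, another nuclear IkB protein, was higher in ΔC than in WT cells by 2.34 ± 0.40 without and 3.70 ± 0.40 with poly(I:C). Ikbkg, the regulatory subunit of the IkB kinase, was lower without poly(I:C) (-0.63 ± 0.20), Nfkbie was higher (0.75 ± 0.17), and Nfkbia was lower with it (-0.71 ± 0.17). The list's median change was 0.88 in ΔC and 0.84 in WT cells with poly(I:C), and 0.23 and -0.08 between the genotypes without and with it, beside the medians over all genes given above.

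Of 20 genes for TNF receptors, TRAF adaptors, cIAP relatives and the linear ubiquitin ligase, 1 rose with poly(I:C) in ΔC cells and 5 in WT cells, with 0 falls, and the list's median was 0.04 and 0.09. Map3k14, the kinase of the alternative NF-kB pathway, was the gene that rose in ΔC cells (0.77 ± 0.13). In WT cells Cd40, a costimulatory TNF receptor family member that was well above background on 2 of 3 treated arrays, was at least 2.363-fold higher, and Rnf31, the catalytic subunit of the linear ubiquitin ligase, rose by 1.70 ± 0.22. Cd40 was kept for testing only through its treated ΔC arrays. Between the genotypes Tnfrsf1b, a TNF receptor, was lower in ΔC cells without (-0.64 ± 0.11) and with poly(I:C) (-0.52 ± 0.11), Cd40 was at least 1.582-fold higher without it, and Rnf31 (-1.07 ± 0.22) and Xiap (-0.80 ± 0.22) were lower with it. Of 8 partners of A20 and related deubiquitinases, 0 were called with poly(I:C) by limma in either genotype, and at an unadjusted p under 0.05 there were 0 in ΔC cells and 1 in WT cells, with medians of 0.00 and -0.02. The largest change among these 8 was 0.31 ± 0.30 for Tnip3 in ΔC cells and -0.58 ± 0.36 for Otud7b in WT cells. Itch, a ubiquitin ligase that works with A20, was called between the genotypes, 1 of the 8, at 0.51 ± 0.16 without and 0.68 ± 0.16 with poly(I:C).

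Of 21 other adhesion molecules and integrin partners, 19 were tested, and 2 rose with poly(I:C) in ΔC cells and 1 in WT cells, with 0 falls and medians of 0.20 and -0.05. Sele, the endothelial selectin, was at least 2.730-fold higher with poly(I:C) in ΔC cells, and Madcam1, a mucosal ligand of integrins, rose by 1.98 ± 0.37 in ΔC and 1.96 ± 0.37 in WT cells. Sele, also counted between the treated genotypes below, was kept for testing only through its treated ΔC arrays, where it is high. Between the genotypes 2 of the 19 were higher and 3 lower in ΔC cells without poly(I:C), where 10.9% and 10.2% of all genes were. With poly(I:C) 5 were higher and 3 lower, where 11.9% and 9.04% of all genes were. Nectin2, a cell junction protein, was higher by 1.60 ± 0.17 without and 1.94 ± 0.17 with poly(I:C), Jam3, a junctional adhesion molecule, by 0.52 ± 0.14 without, and Sele was at least 2.813-fold higher with it. Cd44, the receptor for hyaluronan, was lower without poly(I:C) (-1.09 ± 0.29), as was Cdh2, the neural cadherin (-1.04 ± 0.19), and Cd47, a partner of integrins (-0.99 ± 0.28), and Cd44 (-0.94 ± 0.29) were lower with it.

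Of 7 costimulatory and checkpoint molecules 4 were tested, and 1 rose with poly(I:C) in ΔC cells and 2 in WT cells, with 0 falls and medians of -0.06 and 0.49. Cd274, the checkpoint ligand PD-L1, rose by 3.03 ± 0.54 in ΔC cells and 7.54 ± 0.54 in WT cells, and was lower in ΔC than in WT cells with poly(I:C) (-2.86 ± 0.54). Cd80, a ligand of CD28, rose by 1.01 ± 0.20 in WT cells and was also lower in ΔC than in WT cells with poly(I:C) (-0.77 ± 0.20). Icosl, the ligand of the costimulator ICOS, was higher in ΔC than in WT cells by 4.34 ± 0.30 without and 4.32 ± 0.30 with poly(I:C). Of 11 other antioxidant enzymes 0 were called with poly(I:C) by limma in either genotype, with 1 at an unadjusted p under 0.05 in ΔC cells and 4 in WT cells and medians of 0.00 and -0.29. The largest change was 0.37 ± 0.45 in ΔC and 1.64 ± 0.45 in WT cells, for Hmox1, the heme oxygenase. Sod3, the secreted superoxide dismutase, was lower in ΔC than in WT cells without (-3.66 ± 0.93) and with poly(I:C) (-3.42 ± 0.93). Gclm, which serves glutathione synthesis, was lower without it (-0.57 ± 0.14), Hmox1 lower with it (-2.30 ± 0.45) and Gpx1, a glutathione peroxidase, higher with it (0.48 ± 0.13). Of the genes tested in these 6 lists 0 passed the test of the difference between the responses by limma, where 0.0194% of all genes did. At an unadjusted p under 0.05 the lists had, in the order described, 1, 3, 0, 2, 2 and 0 genes, where 5.41% of all genes passed.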

How the data were processed

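RNA of 12 MEF cultures, 200 ng each, was measured on Agilent single-colour arrays. Per the file headers, the deposited scanner files were made with Feature Extraction 10.7.3.1 and hold, for each of 62976 spots, a processed intensity that is background-subtracted and spatially detrended, with no normalization between arrays, beside median spot and background intensities. A further deposited table gives log2 values by probe, and limma is named in the submitters' processing notes. One column of that table, named for the first treated ΔC array, tracked an untreated WT array (r = 0.9743) more closely than its own (0.9488), so it served only as an alternative, with and without that column.

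Processed intensities were put on the log2 scale, outlier spots were dropped, spots of a probe were averaged, and each array's 75th percentile was subtracted. Probes were named by RefSeq accession (27235 of 55681). A gene was kept where a probe passed the scanner's background flag on each of the 3 arrays in some group, and its probe of highest mean was used. All 12 arrays entered 1 limma fit with a mean for each group (limma 3.58.1, R 4.3.3, 8 residual degrees of freedom, two-sided), with Benjamini-Hochberg adjustment over 15445 genes. Where no array of a group passed that flag, a bound was computed on processed intensity, raising that group to each array's lowest passing signal. Unless this floor is named, an adjusted p belongs to the fit without it. The fit was tested on simulated data. The number of arrays limits the precision.

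Same-numbered arrays deviated together in all 12 pairs (r of 0.1153 to 0.6508, from the data), but some differently numbered ones did so as well. Untreated ΔC array 1 had r = 0.1954 with untreated WT array 2, against 0.1193 with WT array 1. These values do not settle whether the numbers pair the samples. The replicate number was therefore used as a block in an alternative and not in the main fit. The members, gene lists and tests were chosen with earlier results of these data known. Named genes are the 10 members, the checks Ppp1r15a and Ifnb1, the 2 largest called rises and falls of each list (the largest change where none was called), and the 3 genes of highest r to each member. Alternatives changed the scaling, background correction, probe choice, filter, arrays and blocks.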

Additional observations from a re-analysis of the deposited data

How the results depend on the processing

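Over 30 alternatives (29 for Icam1 and Cd83, which the strictest filter drops), most of the members' changes kept their sign and their side of the threshold. Whether the replicate numbers pair the arrays is not settled. With the replicate block the calls were kept, and the count in the WT response was 6, with Birc2 (0.72, adjusted p = 0.01291). The mismatched column is the one of the authors' deposited table that tracked another array.

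Members called higher without poly(I:C) between the genotypes numbered 2, and 3 with array weights, which added Birc2 (0.38, adjusted p = 0.02657), 1 with probes well above background on all 12 arrays, 0 in the authors' deposited table, and 1 with a fixed slide or scan day term. Members called lower there numbered 2, and 1 with median scaling, quantile normalization, normexp or the authors' table without its mismatched column, 0 with only the groups compared, the authors' table, slide or scan day, 3 without the 4 arrays numbered 3, which added Birc3, and 4 with array weights. With poly(I:C), members called higher numbered 1, and 0 under the strictest filter and in the authors' table. Members called lower numbered 1, and 2 with median scaling or only the groups compared, 3 with array weights or without the 4 arrays numbered 3, and 0 in the authors' table with or without its mismatched column and with slide or scan day. In the WT response 5 were called higher, Cd83 included, and 2 in the authors' table or with slide, 3 with scan day, 4 with the floor, which dropped Cd83, or under the strictest filter, 6 with normexp or with slide or scan day as a random block, and 7 with array weights, with the trended robust test or without the arrays numbered 3, Birc2 and Birc3 being the members gained. There array weights called 1 lower, Sod2, where 0 were. In the ΔC response 5 rose, and 6 with array weights (Birc3, adjusted p = 0.005375) or without the arrays numbered 3 (Birc3, adjusted p = 0.003631), 3 under the strictest filter or in the authors' table without its mismatched column, 2 with only the groups compared or scan day, 1 with slide and 0 in the authors' table. Leaving out single arrays gave 2 higher and 1 to 2 lower without poly(I:C), 1 higher and 0 to 2 lower with it, 3 to 7 in the WT response and 3 to 5 in the ΔC response.

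Signs turned only for changes that were not called. Between the genotypes without poly(I:C), Tnip1 had -0.0091 with array weights and -0.0178 without the arrays numbered 3, and Icam1 -0.0049 with dim values raised to the floor. With poly(I:C), Tnip1 had -0.12 with median scaling, -0.0467 with array weights, -0.0893 without the arrays numbered 3, -0.0558 with slide and -0.072 with scan day, and Birc2 had -0.14 with median scaling, -0.10 with array weights, -0.25 and -0.0286 in the authors' table with and without the mismatched column, and -0.12 without the arrays numbered 3. In the authors' table Cyld had 0.21, Vcam1 -0.30 and Sod2 0.15 there, Icam1 0.0194 without the mismatched column, and Cyld 0.13 and Sod2 0.23 in the ΔC response. For the difference of responses, Tnip1 had 0.0339 with normexp and 0.0129 in the authors' table without the mismatched column, Cyld -0.0614 and Sod2 -0.0154 with median scaling, Traf1 0.0093 with quantile normalization, 0.0488 with normexp and 0.0421 in the authors' table without the mismatched column, and Cd83 -1.68 in the authors' table. Without single arrays, Tnip1 ran from -0.0358 to 0.12 and Cyld from -0.56 to 0.0303 without poly(I:C), and with it Tnip1 from -0.0568 to 0.12, Cyld from -0.26 to 0.0265, Birc2 from -0.16 to 0.0973 and Icam1 from -0.67 to 0.13. Sod2 ran from -0.11 to 0.0116 in the ΔC response, and for the difference Tnip1 ran from -0.11 to 0.0617, Cyld from -0.15 to 0.44, Birc3 from -0.51 to 0.20 and Traf1 from -0.38 to 0.38. The causes were not tested.

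The calls of Traf1 and of untreated Sod2, and that of Vcam1 in ΔC cells, were lost with a slide term and without some single arrays or under other scalings. A slide term also ended the Vcam1 calls in WT cells and between untreated genotypes, the Icam1 response of ΔC cells and the Cd83 responses. None of these calls was lost with slide as a random block. Icam1 in untreated cells and Cd83 in WT cells were limited by the array background, and normexp or the floor shrank these: in WT cells Icam1 had 1.36 with normexp and 3.15 with the floor, and untreated Cd83 between the genotypes had 0.88 and 1.96. The Cd83 difference of responses grew, as given above.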
